A study of Dreissena polymorpha with 11 samples.

Results

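Half-body tissue of the zebra mussel, labelled HB, was compared with gill on 4 of the 11 arrays of the series, chosen by their titles. The zebra mussel, Dreissena polymorpha, is a freshwater bivalve, and all animals were untreated. The half-body side holds 2 arrays, labelled female (HB 1) and male (HB 2), and the gill side holds 2 arrays with replicate numbers 1 and 2. The gender label gives gill 1 as female and gill 2 as male, whereas the source label calls both gills female. The 4 arrays were hybridised with Cy3-labelled material started from 500 ng of total RNA. Arrays of digestive gland, male gonad, female gonad and 24 h larvae make up the rest of the series. Age is given as not applicable on the 4 arrays, and the labels do not say which organs the half-body tissue held, nor whether an array represents 1 animal or a pool. The p-values therefore measure only the spread between arrays of 1 tissue, in these and the other tissues of the fit, and this spread may be technical.

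The gill of a bivalve is a sheet of ciliated filaments that moves water, traps food particles and exchanges gases. Tissue taken across the body mixes organs, so a transcript of 1 organ is diluted by RNA from the others, and in such bulk samples fewer cells of a type and less RNA per cell cannot be told apart. A comparison of the pair thus asks which array sequences are seen in the mixed body and not in gill, and which are seen in gill and are lost in the mixture.

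Each array carried 13654 probes made for 3541 sequences. The sequences carry database identifiers in which 3 series dominate, here called EY (2864 sequences), AM (437) and AJ (135) after their first letters, while the rest have other names. The files pair no identifier with a gene except for the symbol RXR, and 0 of the 3541 names were found among the 51549 genes that RefSeq lists for assembly UMN_Dpol_1.0. Tissue markers could therefore not be checked on any array. By the scanner software's own call, 4357 and 4453 probes were well above background on gill 1 and gill 2, and 4726 and 5247 on HB 1 and HB 2. A probe was tested if it passed that call on both half-body or on both gill arrays, which 4752 probes did. Of these, 3351 passed on both sides, 939 on both half-body arrays only and 462 on both gill arrays only. Levels are log2 processed signals minus the array's 75th percentile over 3075 probes detected on all 10 usable arrays, so 0 is a bright probe. Background differs by array on this scale. The dimmest level called well above background was -10.38 and -10.33 on the gill arrays and -10.49 and -11.16 on HB 1 and HB 2. Over all 10 arrays it ran from -12.12 on digestive gland 2 to -10.23 on the larval array.

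Half-body tissue differed from gill in both directions, and the called rises had a larger median size than the called falls. Probes called higher in half-body tissue differed from gill by 1.79 to 12.52 log2 units, with a median of 6.04. Probes called lower differed by 1.75 to 5.57 log2 units in size, with a median of -3.33. These are fitted values, and for the 69 higher and 47 lower calls that lacked signal on both arrays of the lower side the size has only a lower bound. limma called 216 of 4752 probes at an adjusted p below 0.05 (4.55%), of which 120 (2.53%) were higher and 96 (2.02%) lower in half-body tissue. The fit held 10 arrays, all but 1 nearly blank larval array, with 1 mean per group, and its spread came from the half-body, gill, digestive gland and male gonad pairs. The calls among the 3351 probes detected on both sides were 39 higher and 43 lower. The split depends on the scaling: it was 72 higher and 14 lower with the percentile over all probes, 95 and 15 with the median of the common probes, and 120 and 188 after quantile normalization. With the slide as a block fewer probes were called, most of them higher in half-body tissue. Gill 1 was the only array on slide 3, so under that block the gill side rested on gill 2 alone. Without HB 1 the calls were 52 higher and 1 lower, without HB 2 53 and 1, without gill 1 50 and 16, and without gill 2 51 and 9. With the nearly blank larval array included there were 20 calls, all higher. The lower calls thus fell further than the higher calls whenever 1 of the 4 arrays was left out.

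**Figure D1:**
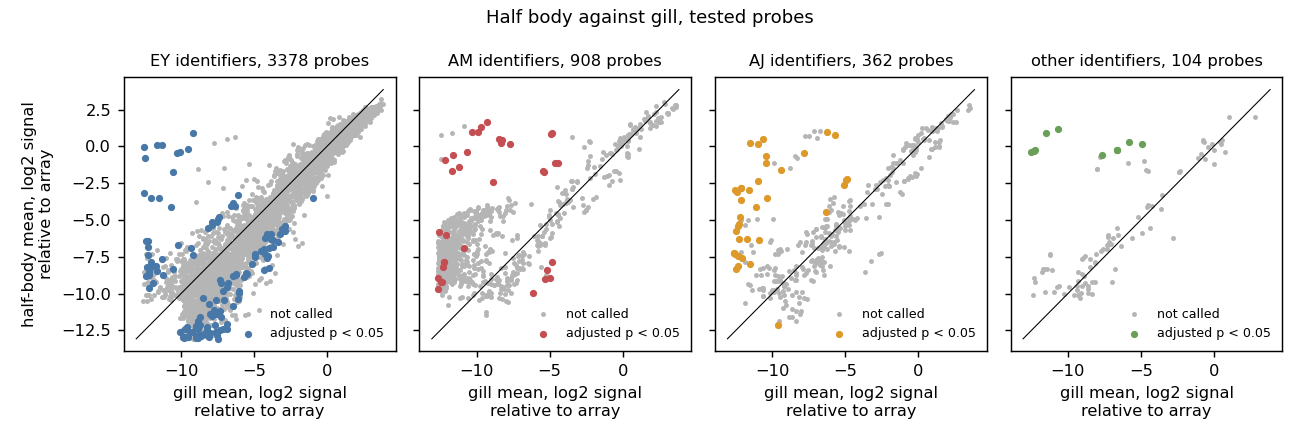
Mean level of each tested probe on the 2 gill arrays (horizontal axis) and on the 2 half-body arrays (vertical axis), in log2 units relative to the array, with 1 panel for each identifier series and coloured points for probes called by limma. The called EY probes lie on both sides of the line of equal level, whereas 37 of 38 called AJ probes lie above it, and many AM probes form a cloud near background in gill that is raised in half-body tissue.

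With AM identifiers left out, 181 of 3844 probes (4.71%) carried a call of that same fit, 90 higher (2.34%) and 91 lower (2.37%). AM identifiers thus supplied 35 of the 216 calls, 30 higher and 5 lower, or 3.85% of the 908 AM probes tested. When the AM probes were removed before scaling and fitting, limma called 316 of the 3844 other probes (8.22%), 139 higher and 177 lower. The residual SD that limma shrinks was larger for AM than for the other series. Its median over probes was 2.87 log2 units for AM and 0.56 for EY in the 10-array fit. Over the 4 half-body and gill arrays alone it was 1.05 for AM and 0.48 for EY. A fit of only those 4 arrays called 797 probes (16.8%), of which 432 were AM, 426 of them higher in half-body tissue. The other 365 calls of that fit were 144 higher and 221 lower. Of the 216 calls, 210 were also made by the 4-array fit with the same sign. Both fits take the difference from the same 4 arrays, so this overlap is not an independent check.

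Among sequences with at least 3 tested probes that all moved one way, EF194204 had the largest fitted median difference outside the AM series, and the files give no gene name for it. That order rests on gill values at background, and sequences whose difference has only a lower bound cannot be ranked. The median processed signal of its 5 probes, a linear intensity, was 8.08 on gill 1 and 3.48 on gill 2, against 49800 on HB 1 and 22200 on HB 2. On the relative log2 scale these levels were -12.24, -12.36, 0.60 and -0.84, and the groups did not overlap. On both gill arrays all 5 probes were not well above background, so the difference has only a lower bound, taken against the dimmest signal called well above background on each gill array. The bounds ran from at least 1030-fold to at least 2970-fold higher in half-body tissue, and all 5 probes were called (limma adjusted p from 0.000558 to 0.0017). The digestive gland arrays gave signals of 27400 and 24200, the male gonad arrays 4710 and 7650, the female gonad array 7080 and the larval array 1770. EF194204 was thus far brighter on every other array of the fit than on the gill arrays.

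Among AM sequences the same rule gave AM230114, also without a gene name. Its 4 probes had median signals of 42.2 and 20.9 on gill 1 and gill 2, and of 118000 and 55800 on HB 1 and HB 2. On the relative log2 scale these were -9.86, -9.77, 1.84 and 0.49, without overlap. Here the gill level was measured rather than bounded, because 3 of the 4 probes were well above background on both gill arrays and the fourth on 1 of them. The sequence median differed by 10.98 ± 0.57 log2 units (SE, limma adjusted p = 0.000869, higher in 2 of 2 half-body arrays), and the single probes by 10.92 to 11.31. Its signals were 172000 and 171000 in digestive gland, 84400 and 100000 on the male and 56900 on the female gonad arrays, and 9160 in larvae. AM230114 and EF194204 each kept their call under every alternative that tested them, except the authors' deposited value table. In that table the differences were 5.001 log2 units for AM230114 (limma adjusted p = 0.526) and 7.65 for EF194204 (limma adjusted p = 0.374). The table's column for gill 1 correlated with that array's own scanner values at r = 0.579 across probes, against 0.984 or more in the columns of the 9 other arrays of the fit.

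The named falls had smaller fitted differences and began from dim gill signals. They ended at background on the half-body arrays, so their sizes have only lower bounds and cannot be ranked against the rises. EY434101 had median signals of 313 on gill 1 and 118 on gill 2, and of 8.54 and 5.27 on HB 1 and HB 2, over its 3 tested probes. All 3 were called lower (limma adjusted p from 0.00602 to 0.0333) and none was well above background on a half-body array, which gives bounds of at least 2.68-fold to at least 15.4-fold higher in gill. Its median signal lay between 3.08 and 9.1 on the digestive gland, gonad and larval arrays, so both gill values were above those of all other arrays of the fit. The sequence median differed by -5.28 ± 0.49 log2 units (SE, limma adjusted p = 0.00647), which shrank to -2.34 with normexp, -3.32 with no filter on dim probes and -2.77 in the authors' deposited table. Among the 6 of 26 alternatives that lost this call were the slide as a block (limma adjusted p = 0.0826) and the fits without gill 1, gill 2 or HB 2 (limma adjusted p = 0.0534, 0.0615 and 0.0503). EY436261 had signals of 111 and 91.7 on the gill arrays and 5.68 and 5.17 on the half-body arrays, with no overlap. Of its 3 probes, 2 were called lower and the third was not (limma adjusted p = 0.0643), with bounds from at least 5.56-fold to at least 9.76-fold higher in gill. Its sequence median differed by -4.65 ± 0.70 log2 units (SE, limma adjusted p = 0.0347), which shrank to -1.59 with normexp and to -2.06 in the authors' deposited table. EY436261 gave signals of 27.3 on male gonad 2 and 17.8 on the female gonad array. Its call was lost under 14 of 26 alternatives, among them the slide block (limma adjusted p = 0.135) and the removal of any 1 half-body or gill array (0.103 to 0.165).

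**Figure D2:**
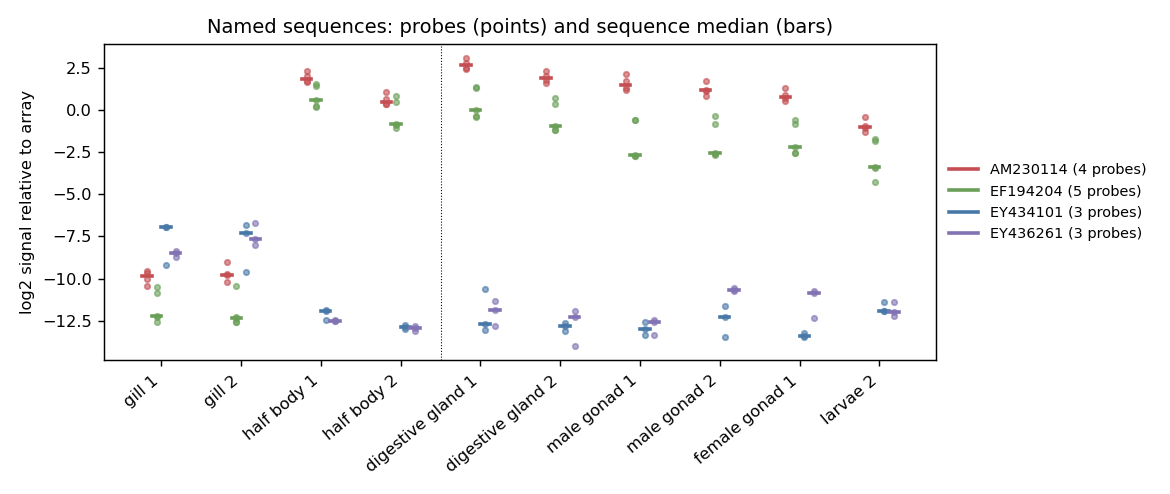
Level of every tested probe (points) and the sequence median (bars) of 4 sequences on the 10 arrays, in log2 units relative to the array. The medians of EF194204 and AM230114 lie at -9.77 or lower on both gill arrays and between -3.39 and 2.65 on all others, whereas those of EY434101 and EY436261 lie at -8.45 or higher on the gill arrays and at -10.69 or lower elsewhere.

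Most tested AM probes were higher on the half-body arrays, although few of them were called. Over the 908 tested AM probes the median level was -11.35 on gill 1 and -10.6 on gill 2, against -7.23 on HB 1 and -5.88 on HB 2. The median difference was 3.75 log2 units (quartiles 0.67 and 5.10), while that over all tested probes was -0.24. Both half-body arrays exceeded both gill arrays for 667 AM probes (73.5%), against 1373 of all tested probes (28.9%) and 706 of the probes without AM (18.4%). The reverse held for 62 AM probes (6.83%). Of the 908 AM probes, 607 entered the test only through their half-body detection. Of these, 484 were well above background on both half-body arrays and on neither gill array, while 1 AM probe showed the reverse. Where an AM probe was measured on all 4 arrays, as 286 were, the median difference was 0.16 (quartiles -0.84 and 1.61), with 106 probes (37.1%) higher and 57 (19.9%) lower without overlap. Of all 3351 probes measured on the 4 arrays, 617 (18.4%) were higher and 1318 (39.3%) lower.

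The AM level also differed between arrays of 1 tissue. HB 2 exceeded HB 1 by a median of 1.39 log2 units over the AM probes, whereas gill 2 exceeded gill 1 by 0.16. The 484 AM probes seen on the half-body side of the comparison alone had median levels of -8.04 and -6.21 on the half-body arrays and of -12.29 and -12.08 in gill. They were picked by detection in half-body tissue and not in gill, so that gap follows from the choice. Digestive gland 1 and 2 read -9.79 and -4.21 for the same probes, male gonad 1 and 2 read -10.87 and -4.11, and the female gonad array read -10.03. The arrays of 1 tissue thus lay far apart for these probes in digestive gland and male gonad, and the part of that spread in the difference from gill was not tested.

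**Figure D3:**
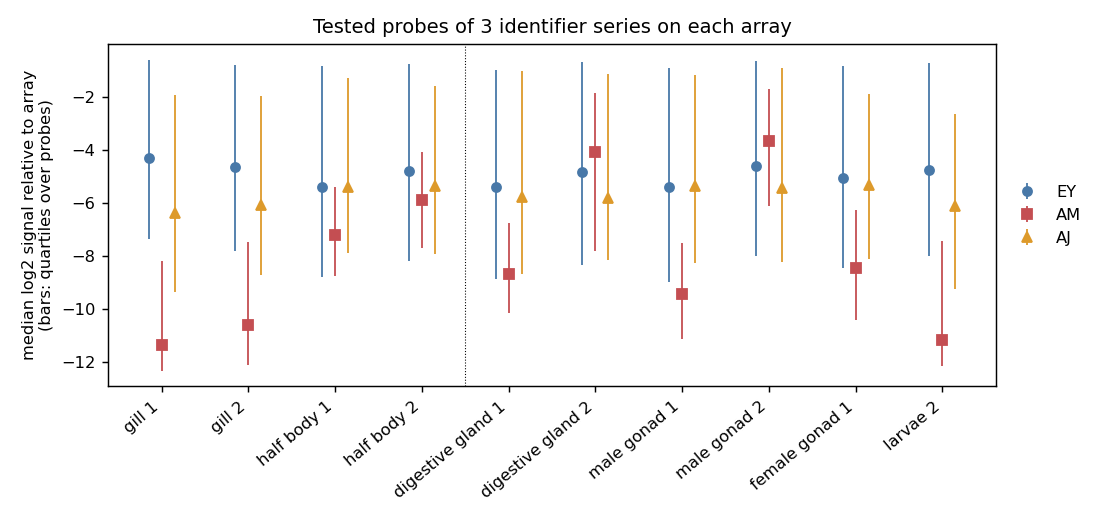
Median level (symbols) and quartiles (bars) over the tested EY, AM and AJ probes on each of 10 arrays, in log2 units relative to the array. AM medians lie at -11.35 and -10.6 in gill and at -7.23 and -5.88 in half-body tissue, and differ between arrays of 1 tissue in digestive gland and male gonad, while EY and AJ medians stay between -6.40 and -4.32 on all 10 arrays.

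Within the AM series, blocks of identifiers had different medians, a split made after the data had been seen. The identifiers that begin with AM229 or AM230 cover 422 of the 437 AM sequences, and their 861 tested probes had a median difference of 3.91 log2 units. Those that begin with AM502 or AM503 cover 14 sequences, and their 46 tested probes had a median difference of -0.66, with 12 probes (26.1%) higher and 20 (43.5%) lower without overlap, shares near the 28.9% and 35.5% of all tested probes. Their median levels were -1.36 and -2.48 on the gill arrays and -3.20 and -2.69 on the half-body arrays. Of these 46 probes, 41 were well above background on all 4 arrays, against 245 of the 861. The blocks thus also differed in how their probes entered the test. The AM229 probes carried 0 of the 35 AM calls of the 10-array limma fit, with 1 probe at an unadjusted p under 0.05. Of their 350 tested probes, 332 (94.9%) were higher on the half-body arrays without overlap, against 28.9% of all tested probes. However, 255 of the 350 were well above background on both half-body arrays and neither gill array, and 41 on all 4. Entry through half-body detection thus largely set this lack of overlap. The 4-array fit called 253 of these 350. The AM230 probes carried 29 of the calls.

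EY probes, the bulk of the array, had a median difference below 0, close to the -0.52 log2 units of all tested probes without AM. Over 3378 tested EY probes the median level was -4.32 and -4.64 on the gill arrays and -5.39 and -4.81 on the half-body arrays. Their median difference was -0.60 (quartiles -1.39 and 0.19), and it remained below 0 under all 14 alternatives run on it, from -0.99 with the percentile over all probes to -0.09 in the authors' deposited table. The median over all tested probes itself ran from -0.63 to 0.08 between scalings of the scanner values, against -0.24 in the one reported. Of the tested EY probes, 90 from 62 sequences were called lower (2.66%), a share near the 2.02% of all tested probes and the 2.37% of those without AM. The 43 higher calls, from 34 sequences, were 1.27%, against 2.53% and 2.34%. Both half-body arrays lay below both gill arrays for 1525 EY probes (45.1%) and above them for 535 (15.8%), against 35.5% and 28.9% of all tested probes and 42.2% and 18.4% of those without AM.

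AJ sequences had 37 probes from 12 sequences called higher among 362 tested (10.2%), against 2.53% of all tested probes and 2.34% of those without AM, and 1 called lower. Of the 37, 25 were well above background on neither gill array and 5 on 1 of them. Those probes entered the test only through their half-body detection. Among AJ probes measured on all 4 arrays, 7 of 259 were called higher, against 39 of 3351 over all series. The series as a whole had no clear direction: the median difference over the series was 0.06 log2 units (quartiles -0.70 and 1.22), and its sign changed under 7 of 14 alternatives. The AJ probes called higher had a median difference of 6.97. Their median level was -12.25 and -11.66 on the gill arrays and -2.90 and -3.49 on the half-body arrays, while the medians on digestive gland, gonad and larval arrays lay between -4.44 and -2.64. Of the 104 tested probes with other identifiers, 10 from 3 sequences were called, all higher (9.62%, against 2.53% of all tested probes), among them the 5 of EF194204.

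**Figure D4:**
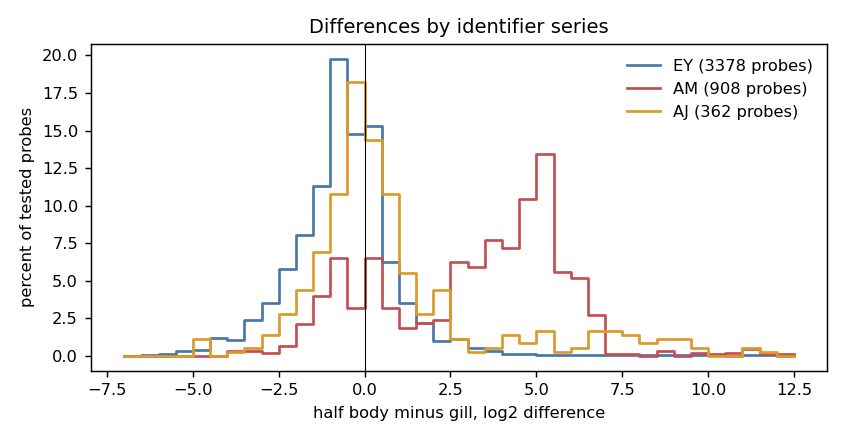
Share of the tested probes of each identifier series (vertical axis, percent) by the log2 difference, HB minus gill (horizontal axis, bins of 0.5). EY and AJ peak near 0, with medians of -0.60 and 0.06, AJ has a tail to the right, and AM has a broad second mode to the right of 0 that holds its median of 3.75.

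Probes of 1 sequence mostly moved together. Of the 122 sequences with a called probe, 89 had at least 2 tested probes, and in 81 of these every tested probe had the same sign. Called or not, the same held for 1030 of the 1318 sequences with at least 2 tested probes. At least 2 probes were called the same way in 50 of the 89, and in 0 of them were probes called in opposite directions. The other 33 sequences, 32 of them EY, rested on a single tested probe. A limma fit of the median over each sequence's tested probes called 86 of 2000 sequences (4.30%), 44 higher and 42 lower in half-body tissue. These were 63 of 1497 EY sequences (4.21%, 23 higher and 40 lower) and 10 of 361 AM sequences (2.77%, 8 higher and 2 lower). The rest were 11 of 107 AJ sequences (10.3%, all higher) and 2 of 35 others (5.71%, both higher). Without AM the count was 76 of 1639 sequences (4.64%).

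Detection followed the same lines. There were 623 probes well above background on both half-body arrays and on neither gill array, and 154 probes showed the reverse. Without AM these counts were 139 and 153. Among the 120 higher calls, 69 had gill signals under that level on both arrays, and their bounds had a median of at least 16.7-fold. Among the 96 lower calls, 47 had half-body signals under it on both arrays, with a median bound of at least 4.4-fold. The calls measured on all 4 arrays had median differences of 3.73 log2 units (39 higher) and -2.72 (43 lower).

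Most probes called higher than in gill were also detected in the other tissues and in larvae, as were most tested probes. Of all 4752 tested probes, at least 3075 were well above background on all 6 other arrays of the fit. Of the 120 higher calls, 90 were well above background on all 6, and 15 on none of them. Their median level was -11.36 and -10.97 on the gill arrays and -3.10 and -3.48 on the half-body arrays. Digestive gland read -4.69 and -3.47, male gonad -3.25 and -3.04, female gonad -4.02 and the larval array -6.33. The 96 lower calls had medians of -6.95 and -7.42 on the gill arrays and of -10.82 and -10.75 on the half-body arrays, and between -11.18 and -10.0 on all others. Of these, 24 probes, 23 EY and 1 AJ, were well above background on none of the 6 other arrays, and 36 on all of them.

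**Figure D5:**
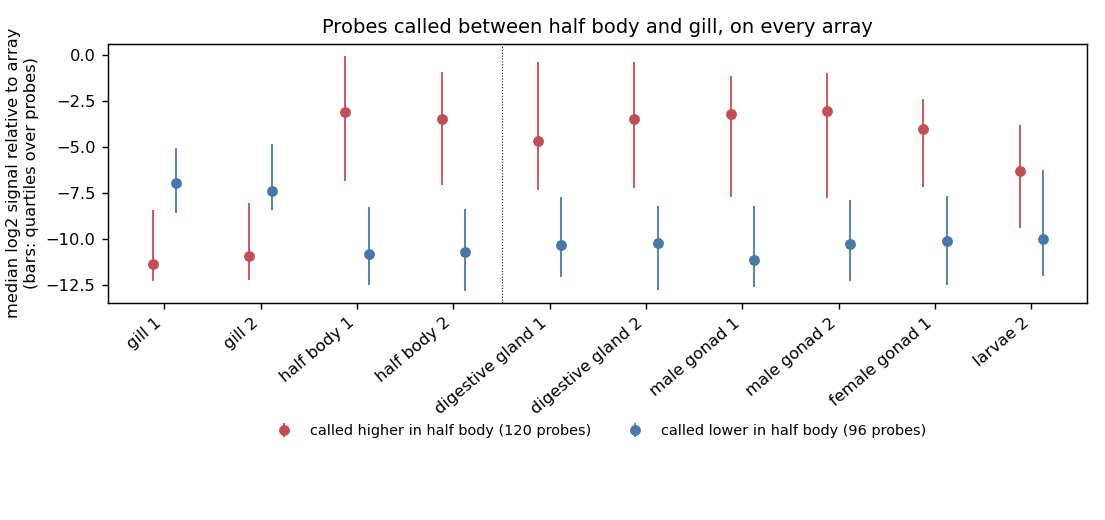
Median level (points) and quartiles (bars) of the 120 probes called higher and the 96 called lower in half-body tissue, on each of the 10 arrays, in log2 units relative to the array. The higher calls are near background on both gill arrays and between -6.33 and -3.04 elsewhere, and the lower calls are above -7.5 on the gill arrays and at -10 or below elsewhere.

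A smaller set of probes, most of them EY like most of the array, was seen in half-body tissue and on no other array of the fit. The 15 higher calls dark on all 6 other arrays were 14 EY probes from 14 sequences and 1 AJ probe. On HB 1 and HB 2 the 14 EY probes had medians of -8.87 and -7.91, with ranges of -9.63 to -6.68 and -10.01 to -5.59. On all other arrays their medians lay between -14.0 and -12.13. The 14 probes were picked as higher calls that were dark on the 6 other arrays, so these levels follow from the choice. All 14 entered the test only through their half-body detection. Calls or not, 36 probes were well above background on both half-body arrays and on none of the other 8 arrays, 31 of them EY and 0 AM. The same count for both gill arrays and none of the other 8 was 39 probes, 37 of them EY. EY probes were 11280 of the 13654 on the array. For comparison in the same fit and over the same probes, limma called 0 of 4752 probes (0.0%) between half-body tissue and digestive gland, with 385 at an unadjusted p under 0.05. Against male gonad it also called 0 of 4752 (0.0%), with 272 at an unadjusted p under 0.05. It called 6 of 4749 (0.126%) between half-body tissue and the mean of both gonads, all EY, all higher in half-body tissue and all 6 also among the calls against gill. These comparisons share the half-body arrays with the one against gill, and the differences between comparisons were not tested. Probes entered by detection in half-body tissue or gill, so those seen only in digestive gland or gonad could not be called.

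Slide and labelled sex run together in these 4 arrays. HB 2 and gill 2, both labelled male, lay on slide 2, HB 1 on slide 1, and gill 1 alone on slide 3. No other array of the series lay on slide 3, so a slide block takes gill 1 out of the comparison. Sex and slide cannot be told apart here. On slide 2 the median of HB 2 minus gill 2 was 4.24 log2 units over AM probes, -0.30 over EY probes and -0.09 over AJ probes. HB 1 minus gill 1, across slides, gave 3.33, -0.71 and 0.56. All 216 called probes had the same sign in both pairs, which took part in the calls.

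RXR, the retinoid X receptor, is a nuclear receptor that acts with partner receptors on target genes and is known in gastropod molluscs as a target of organotin compounds. It was the one named gene, with 6 probes, all of them dim. Only 2 probes could be tested. The first read -12.30 and -12.17 on the gill arrays and -8.74 and -9.63 on the half-body arrays, without overlap. Its fitted difference of 3.05 ± 0.70 log2 units did not pass (limma adjusted p = 0.0773). This probe was well above background on neither gill array, so it entered the test only through half-body detection and its size is not measured. The second read -10.40 and -8.17 in gill and -10.29 and -9.89 in half-body tissue, a difference of -0.80 ± 0.75 (limma adjusted p = 0.506). The other 4 probes were well above background on 1 array of each side at most. Their differences, from values near background, were all below 0, from -0.89 to -0.09 log2 units. The tested RXR probes thus differed in sign.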

How the data were processed

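Total RNA was hybridised to 1-colour Agilent arrays, and groups were taken from the labels. Per the file headers, the deposited intensity values came from Agilent Feature Extraction, version 10.5.1.1: background was subtracted and spatial trends were removed inside each array, with no scaling between arrays. The authors also deposited a table of log2 values, whose scaling, centring and direction are not given in the sources used here. It had 14519 rows, matched by spot number, with column medians of 2.97 to 4.23.

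Control spots and outlier spots (12 to 73 an array) were left out, log2 values of spots of 1 probe were averaged, and a probe counted as well above background when most of its spots did. Larvae 1, with 106 such probes, was left out. limma 3.58.1 in R 4.3.3 (lmFit, eBayes) fitted group means over 10 arrays with 4 residual degrees of freedom, and p-values were adjusted by Benjamini-Hochberg over all probes tested. Of the tested probes, 29 lacked a value on 1 of the 4 arrays. An exact permutation test of 2 against 2 cannot go below p = 0.3333 and was not used. The number of arrays limits the precision. The procedure was tested on simulated data.

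The comparison, its lists and its tests were chosen with earlier results of these data known. The naming rule took 2 sequences higher (1 AM, 1 other) and 2 lower in HB, with at least 3 tested probes of 1 sign, at least 1 call and no overlap, ranked by the median probe difference. Alternatives covered scaling, background correction (normexp, offset 50, on the median signal, since the files hold no mean signal), filters, arrays, blocks and the deposited table. Sequences of probes were not analysed here. Labelled sex was checked as a pairing: the differences between female and male arrays of HB and of gill correlated at r = -0.136 across probes.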

Additional observations from a re-analysis of the deposited data

Results flagged for a closer look

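The median difference of the AJ series had opposite signs in the 2 pairs of equal labelled sex, and the value of the second pair was close to 0. Its median difference was 0.558 log2 units for HB 1 minus gill 1, labelled female, and -0.0888 for HB 2 minus gill 2, labelled male, where the median over all tested probes was -0.0437. The difference between the pairs was not tested, each rests on 1 array a side, and in these arrays sex and slide cannot be told apart.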

How the results depend on the processing

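Each side has 2 arrays, and signals near background limit the folds of dim probes. Against 216 probes, 181 probes without AM and 86 sequences, limma called the following numbers in that order. There were 86, 67 and 26 when the percentile covered all probes, 110, 82 and 42 with the common median, and 308, 277 and 164 after quantile normalization. The deposited table gave 0, 0 and 0, with 568, 407 and 250 at an unadjusted p under 0.05. With no filter there were 101, 79 and 25, with detection on all 4 arrays 83, 64 and 25, with larvae 1 included 20, 16 and 5, and with only the 4 arrays 797, 365 and 361. The slide block gave 51, 36 and 18, trend and robust variances 131, 106 and 54, an adjusted p of 0.01 60, 45 and 21, and normexp 159, 133 and 52. Removing AM before the fit gave 316 probes. Labelled sex as a replicate block gave 777, 290 and 393 on the 4 arrays and 93, 75 and 39 on the adult arrays, and the crossed pairing, chosen after seeing the data, called 48 probes; titles number both half-body arrays 1, so the labels do not pair the samples. Leaving out 1 array at a time gave 53 to 221, 39 to 186 and 15 to 88. The lowest counts came without HB 1 (53 and 39) and without gill 2 (15); without HB 2 and gill 1 there were 54 and 66 probes. The causes of these moves were not tested.

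The AM median of 3.75 was 1.20 with normexp, 1.71 in the deposited table, 2.17 with no filter and 0.158 with detection on all 4 arrays, and the EY median was -0.0921 in the deposited table. The AJ median was -0.334 when the percentile covered all probes, 0.383 with the common median and -0.0572 to 0.435 without 1 of the 4 arrays, the last without gill 2. Against 623 and 154 in all, 1344 probes were detected in HB alone and 550 in gill alone on slide 2, where each side has 1 array. The RXR sequence median of 1.12, which was not called, turned to -0.261 with normexp and to -0.216 with no filter or with detection in any group. AM230114, EF194204, EY434101 and EY436261 kept their directions under all alternatives that tested them.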
